A study of Mus musculus with 193 samples.

Results

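The genes that encode the subunits of the mouse proteasome, and the proteins that assemble, cap or inhibit it, were followed in single germ cells of the neonatal testis. They were taken from the deposited expression table by name: every symbol made of Psm, a letter from a to g and a digit, without the inducible subunits Psmb8, Psmb9 and Psmb10 and without pseudogenes. This gave 46 of the 19557 genes in the table. They comprised 7 alpha and 7 beta subunits of the 20S core, 6 ATPases and 11 non-ATPases of the 19S cap, 2 tissue-specific core subunits, 3 chaperones of cap assembly, 4 chaperones of core assembly, and 5 activators or regulators. The remaining gene, Psmc3ip, matches the name rule but encodes a cofactor of meiotic recombination and no proteasome subunit.

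The proteasome is the protease that degrades proteins tagged with ubiquitin. Its core is a barrel of alpha rings outside and beta rings inside, and 3 of the beta subunits, Psmb5, Psmb6 and Psmb7, carry the proteolytic sites. The cap binds the ubiquitin chain, removes it, and uses a ring of ATPases to unfold the substrate and feed it into the barrel. In the testis, a variant core takes up Psma8 in place of its close relative Psma7 and is needed for meiosis in the mouse.

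The cells came from testes of mice carrying an Id4-eGFP reporter, which marks spermatogonial stem cells, and were sorted for green fluorescence. The cells were of 3 kinds: 69 cells from postnatal day 3 (P3) labelled as knockout (KO) for Rhox10, a homeobox gene, 53 wild-type (WT) cells from postnatal day 7 (P7), and 71 WT cells from P3. Each deposited sample was 1 cell. Titles divide the cells into lettered sets whose meaning is not given: sets A, B and C of 21, 12 and 36 KO-labelled P3 cells, sets A and B of 12 and 41 WT P7 cells, and sets A and B of 16 and 55 WT P3 cells. No label names an animal, litter or culture, how the Rhox10 allele was made, or how many mice were pooled.

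Because cells are not replicates, each kind of cell counted as 1 sample and no p-value was computed. Values are in RPM, reads scaled to a common total per cell, and a level is the mean over cells of log2(RPM + 1). Sets count equally in the level of their group, and each difference is given with its range over all pairs of sets, 6 pairs for KO-labelled P3 minus WT P3 and 4 pairs for WT P7 minus WT P3. A gene counted as measured at a mean level of at least 2, and as higher or lower where its difference reached 0.5 with the same sign in every pair of sets. Both comparisons use the same WT P3 cells and are therefore not independent of each other.

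Recovered totals ranged from 251530 to 10663507 reads per cell. All 193 cells had more than 1 RPM of Ddx4 or Dazl, which mark germ cells, a low bar. The level of these 2 genes was lowest in KO-labelled set A, at 7.87 against 8.37 to 9.08 in the other sets. Their sum fell to 12.3 RPM in a cell of that set, against lowest sums of 394 to 776 RPM in the other sets. Rhox10 RNA went against the KO label in part: its level was 2.48, 2.62 and 0.83 in KO-labelled sets A, B and C, 1.53 and 1.52 in WT P7 sets A and B, and 1.78 and 1.49 in sets A and B of WT P3. Set A of the KO-labelled cells stood apart. It had the lowest level of S-phase genes, at 3.00 against 4.46 to 5.77 in the other sets, and of G2/M genes, at 1.66 against 2.72 to 4.93. Its Sertoli cell marker level was the highest, at 1.43 against 0 to 0.76, with 3 of 5 markers at a level above 0.5 and a summed level of 0 to 1617 RPM per cell. Its level of myoid and stromal markers was also the highest, at 0.69 against 0.09 to 0.40, with 4 of 5 markers above 0.5 and a sum of 0 to 40.7 RPM per cell. The genes of the table together took more of each cell's total in WT P7 cells, at 154801 and 153631 RPM in sets A and B, than in WT P3 cells, at 119560 and 108513 RPM. KO-labelled sets A, B and C stood at 129478, 143122 and 141532 RPM. Differences are therefore also given after rescaling each cell by the median ratio over 2181 widely detected genes, none of them among the 46. Rescaling lowered the median difference of all genes by 0.36 for P7 and by 0.16 for the KO label.

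The proximal promoters of 4 subunit genes are shown because these genes had the largest P7 differences among the core and cap genes with a promoter entry, 2 from the core and 2 from the cap. Each is the RefSeq window on GRCm38.p6 that runs from 250 bases before to 50 bases after the annotated start, read in the direction of transcription. Capitals mark matches, on either strand, to 4 motifs: CCGGAAG, the core of sites for ETS factors, GGGCGG, the GC box, CCAAT, the box bound by NF-Y, and TGACNNNGC, the core of the antioxidant response element. The last of these is bound by Nfe2l1 and Nfe2l2, and Nfe2l1 is known to raise proteasome gene transcription when proteasomes are inhibited. Psmb5 and Psmb4 encode beta subunits, Psmd6 a non-ATPase of the cap, and Psmd4 a ubiquitin receptor of the cap. The windows lie on the minus strand at chr14:54617946-54618245, chr3:94886909-94887208, chr14:14120896-14121195 and chr3:95042565-95042864, in the order printed.
Psmb5: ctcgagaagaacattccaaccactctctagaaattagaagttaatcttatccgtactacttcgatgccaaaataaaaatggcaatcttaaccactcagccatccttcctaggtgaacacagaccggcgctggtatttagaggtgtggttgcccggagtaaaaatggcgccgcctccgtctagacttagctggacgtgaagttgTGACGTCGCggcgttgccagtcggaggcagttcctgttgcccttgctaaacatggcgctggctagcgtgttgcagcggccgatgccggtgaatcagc
Psmb4: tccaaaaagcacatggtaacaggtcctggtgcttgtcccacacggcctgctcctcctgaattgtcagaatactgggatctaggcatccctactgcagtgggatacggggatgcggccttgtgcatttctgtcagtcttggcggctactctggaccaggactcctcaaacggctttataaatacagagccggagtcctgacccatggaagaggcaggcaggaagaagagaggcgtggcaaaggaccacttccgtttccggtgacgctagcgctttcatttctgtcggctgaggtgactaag
Psmd6: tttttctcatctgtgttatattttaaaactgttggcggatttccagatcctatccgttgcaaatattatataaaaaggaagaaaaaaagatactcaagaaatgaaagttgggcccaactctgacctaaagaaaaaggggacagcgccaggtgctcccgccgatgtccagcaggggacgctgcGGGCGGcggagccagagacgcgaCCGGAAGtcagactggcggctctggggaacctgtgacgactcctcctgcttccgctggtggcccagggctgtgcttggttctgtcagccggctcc
Psmd4: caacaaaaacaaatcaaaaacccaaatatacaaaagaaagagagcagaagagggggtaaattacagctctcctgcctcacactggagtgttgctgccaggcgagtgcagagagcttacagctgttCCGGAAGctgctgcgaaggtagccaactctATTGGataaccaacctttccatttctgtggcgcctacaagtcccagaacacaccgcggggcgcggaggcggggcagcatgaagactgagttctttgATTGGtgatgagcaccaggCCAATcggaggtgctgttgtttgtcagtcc

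The Psmb5 window held 1 match, to TGACNNNGC, beginning 47 bases before the start. The Psmb4 window held none. The Psmd6 window held GGGCGG beginning 68 bases and CCGGAAG beginning 45 bases before the start. In the Psmd4 window CCGGAAG began 125 bases before the start, and the other 3 matches were to CCAAT. No match overlapped another in these windows.

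Of the 31 core and cap genes, 25 had at least 1 window, 27 in all. With both strands searched, the core and the cap differed most in CCGGAAG, which was present in 66.7% of 15 cap windows and 8.33% of 12 core windows, beside 8.86% of all 32851 mouse windows and 12.9% of the 16655 windows of genes in the table. On the given strand alone, CCGGAAG was present in 26.7% of cap windows and 8.33% of core windows, a smaller gap than that of GGGCGG, at 53.3% and 16.7%. The 9 cap genes with a match were Psmc1, Psmc2, Psmc6, Psmd2, Psmd4, Psmd6, Psmd11, Psmd12 and Psmd13. GGGCGG was found in 66.7% of cap windows and 41.7% of core windows, beside 35.7% of all windows and 53.4% of those of genes in the table. CCAAT was found in 26.7% of cap windows and 50% of core windows, beside 37.4% of all. TGACNNNGC was found in 13.3% of cap windows and 16.7% of core windows, beside 12.4% of all. These shares describe letters in windows, with few windows on each side, and were not tested.

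The RNA of these genes spanned a wide range of levels. Per kilobase of the principal transcript, Psma6, an alpha subunit, stood highest, with 140 RPM per kb in KO-labelled P3 cells, 172 RPM per kb in WT P7 cells and 119 RPM per kb in WT P3 cells. Psmb2, a beta subunit, came next in the mean of the 3 groups, with 108, 182 and 115 RPM per kb in the same order of groups, and led in WT P7 cells. Psmb6, a catalytic subunit, had 88.0, 124 and 82.8 RPM per kb. The lowest constitutive subunits were Psma3, an alpha subunit, with 1.40, 2.12 and 1.60 RPM per kb, and Psmd3, a non-ATPase, with 1.52, 2.38 and 1.95 RPM per kb. Subunits of one particle thus differed many-fold in listed RPM per length in each group. How multiply aligned reads were counted is not given, so members with pseudogene copies or close relatives may be listed too low.

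Within the ATPases the spread was narrower. Psmc4 was the lowest, with 14.5, 23.5 and 13.9 RPM per kb in KO-labelled P3, WT P7 and WT P3 cells. The highest ATPase was Psmc3 in KO-labelled P3 cells, with 33.8 RPM per kb, and Psmc5 in WT P7 and WT P3 cells, with 57.9 and 34.9 RPM per kb. Among non-ATPases, Psmd12 was highest in every group, with 44.8, 54.7 and 42.6 RPM per kb. Of the cap chaperones, Psmd5 stood above Psmd9. Of the core chaperones, Psmg2, which pairs with Psmg1, stood highest, with 26.3, 45.8 and 33.7 RPM per kb, and Psmg3 lowest, with 1.91, 3.25 and 2.19 RPM per kb. Among activators, Psme1, a subunit of the 11S activator PA28, stood highest, with 12.0, 15.4 and 11.5 RPM per kb. These orders rest on the principal transcript of the GENCODE vM21 annotation, and an mRNA that ends elsewhere would change them.

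**Figure D1:**
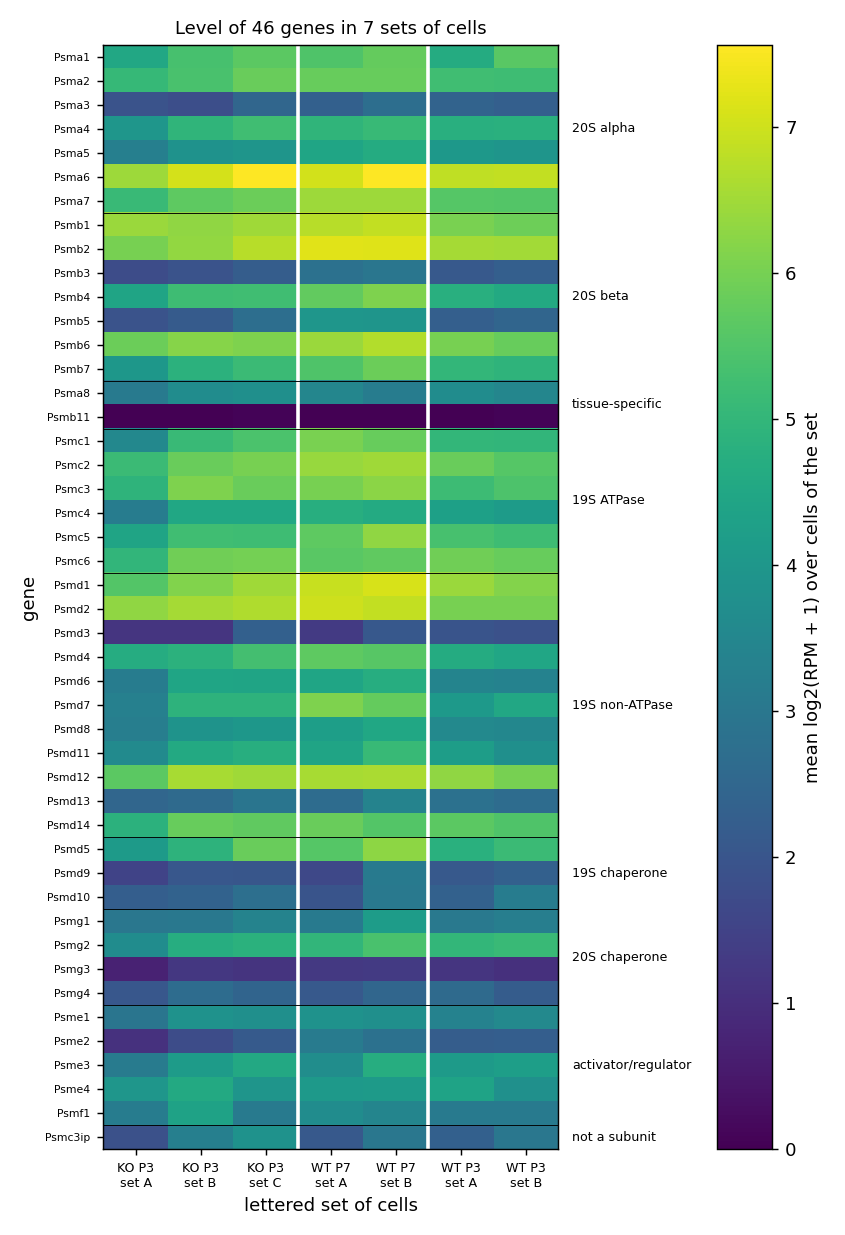
Mean level, log2(RPM + 1), of the 46 genes (rows, grouped by role) in the 7 lettered sets of cells (columns), with the colour scale in log2 units and no correction for transcript length. The WT P7 columns are brighter than the WT P3 columns for most core and cap genes, Psmb11 is near 0 in every set, and KO-labelled set A is the darkest column for most rows.

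Most of the 46 genes were detected in nearly every cell. The share of cells above 1 RPM was at least 90% for 35 genes in KO-labelled P3 cells, 36 in WT P7 cells and 40 in WT P3 cells. Psmg3, a core chaperone, was above 1 RPM in 47.8%, 49.1% and 42.3% of cells in the same order of groups. Psmb11, the core subunit of the thymus, was rarest. It exceeded 1 RPM in 1 of 69 KO-labelled P3 cells, 1.45% (exact Clopper-Pearson 95% interval 0.0367% to 7.81%), in 0 of 53 WT P7 cells, for which the exact interval reaches 6.72% and the limit of 3 counts 5.66%, and in 2 of 71 WT P3 cells, 2.82% (0.343% to 9.81%). These intervals cover counting error only. Psmb11 lies next to Psmb5 on chromosome 14, at 54621433 to 54629556 on the plus strand, against 54614119 to 54618022 on the minus strand for Psmb5 (GRCm38).

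In WT P7 cells the RNA of both the core and the cap was higher than in WT P3 cells. Of the 43 genes measured in this comparison, 23 were higher and 0 lower, where 30.9% of the 4895 measured genes were higher and 8.19% lower. Psmb11, Psmd3 and Psmg3 were under the minimum level. Of the genes at level 4 or more, near that of most of these subunits, 37.5% were higher. The median difference was 0.67 for the 14 core genes (0.58 to 0.77 over pairs of sets) and 0.75 for the 16 measured cap genes (0.52 to 0.90), against 0.25 for all genes and 0.34 for genes of level 4 or more. After rescaling, 6 of the 43 were higher and 2 lower, beside 12.3% and 21.3% of all genes, and the medians were 0.23 for the core, 0.32 for the cap and -0.11 for all genes.

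Markers of other cell types also differed between the ages. For Sertoli cells, their summed RPM per cell was 0 in every cell of WT P7 set A and ran from 0 to 9.47 in WT P7 set B, against 0 to 38.1 in set A and 0 to 576 in set B of WT P3. Of the 5 markers, Amh and Cldn11 were at 0 in all WT P7 cells. S-phase genes had a level of 4.46 and 5.58 in WT P7 sets A and B, against 4.51 and 5.16 in sets A and B of WT P3, and G2/M genes 2.72 and 4.93 in WT P7 sets, against 3.39 and 4.04 in WT P3 sets. The 4 endothelial markers had a level of 0.14 and 0.09 in WT P7 sets A and B, against 0.84 and 0.50 in sets A and B of WT P3. Their sum per cell ran to 9.29 and 15.1 RPM in the WT P7 sets, against 20.8 and 19.4 RPM in the WT P3 sets, and Vwf was at 0 in all WT P7 cells. The 2 Leydig markers in the table went the other way. Their level was 0.36 and 0.39 in the WT P7 sets, against 0.30 in both WT P3 sets. Their sum per cell ran to 42.9 and 41.5 RPM, against 11.1 and 9.81 RPM. Myoid and stromal markers were lower at P7, at 0.09 and 0.15 against 0.25 and 0.28, and leukocyte markers were mixed. The part of any of these in the proteasome differences was not tested.

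The beta ring held the most uniform difference: 7 of 7 beta genes were higher, with a median of 0.72. After rescaling their median was 0.36, and each of the 7 had a positive sign in every pair of sets, as had 21.5% of all genes. Of the alpha genes, 3 of 7 were higher, namely Psma2, Psma5 and Psma7, with a median of 0.48 that became 0.07 after rescaling. The difference between alpha and beta genes was not tested.

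Psmb5, the catalytic subunit that cleaves after hydrophobic residues and is the main target of bortezomib, had the largest difference of the core. Its RPM ran from 0 to 44.1 with a median of 15.9 over WT P7 cells, and from 0 to 16.7 with a median of 4.5 over WT P3 cells. Its level was 3.98 ± 1.42 and 3.96 ± 0.75 in WT P7 sets A and B, against 2.29 ± 1.06 and 2.46 ± 0.84 in sets A and B of WT P3 (SD between cells). The median WT P7 cell thus lay close to the highest WT P3 cell, although the ranges overlapped. The difference was 1.59 (1.5 to 1.69), the ratio of mean RPM was 3.42, and the rescaled difference was 1.21 (1.06 to 1.36). Psmb5 was above 1 RPM in 52 of 53 WT P7 cells and 66 of 71 WT P3 cells.

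Psmb4, a beta subunit without a proteolytic site, came next. Its lowest, median and highest values were 14.6, 64.4 and 147 RPM over WT P7 cells, against 6.77, 23.5 and 59.6 RPM over WT P3 cells. The median WT P7 cell was therefore above every WT P3 cell. The difference was 1.24 (0.98 to 1.5), and 0.81 after rescaling (0.62 to 1.00). The other catalytic subunits differed less: Psmb6 by 0.65 (0.42 to 0.88) and Psmb7 by 0.72 (0.49 to 0.95), with 0.21 and 0.28 after rescaling. Psmb5, Psmb6 and Psmb7 together made up 33.2% of the RPM of the 7 beta genes in WT P7 cells and 34.6% in WT P3 cells, and the difference of -1.47 percentage points ran from -3.52 to 0.57 over pairs of sets.

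In the cap, 11 of the 16 measured genes were higher, 4 of 6 ATPases and 7 of 10 non-ATPases. Psmd7, a non-ATPase that forms a pair with the deubiquitinase Psmd14, had the largest difference of the 46 genes on the deposited scale, just above Psmb5, an order that turned after rescaling and for the ratio of mean RPM. Its RPM ran from 1.37 to 191 with a median of 62.4 over WT P7 cells, and from 0 to 59.7 with a median of 23.3 over WT P3 cells. Its level was 6.12 ± 0.64 and 5.77 ± 1.14 in WT P7 sets A and B, and 4.11 ± 1.51 and 4.54 ± 0.68 in sets A and B of WT P3. The median WT P7 cell was above the highest WT P3 cell. The difference was 1.62 (1.23 to 2.01), the ratio of mean RPM was 2.97, and the rescaled difference was 1.20 (0.74 to 1.66).

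Psmd14 itself, the partner of Psmd7, differed by 0.12 (-0.11 to 0.35), and by -0.32 after rescaling. Psmd6, a scaffold subunit of the lid, differed by 1.19 (1.02 to 1.36), with 0.76, 25.7 and 112 RPM as the lowest, median and highest WT P7 values and 0, 9.98 and 45.5 RPM as those of WT P3 cells. The ubiquitin receptor Psmd4 differed by 1.08 (0.95 to 1.20), with 6.83, 53.6 and 144 RPM in WT P7 cells and 5.23, 20.9 and 68.7 RPM in WT P3 cells. The ranges of both genes overlapped between the ages. The largest ATPase difference was that of Psmc1, at 0.95 (0.81 to 1.09). After rescaling, Psmb5, Psmb4, Psmd7, Psmd6, Psmd4 and Psmc1 were the 6 genes still called higher.

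**Figure D2:**
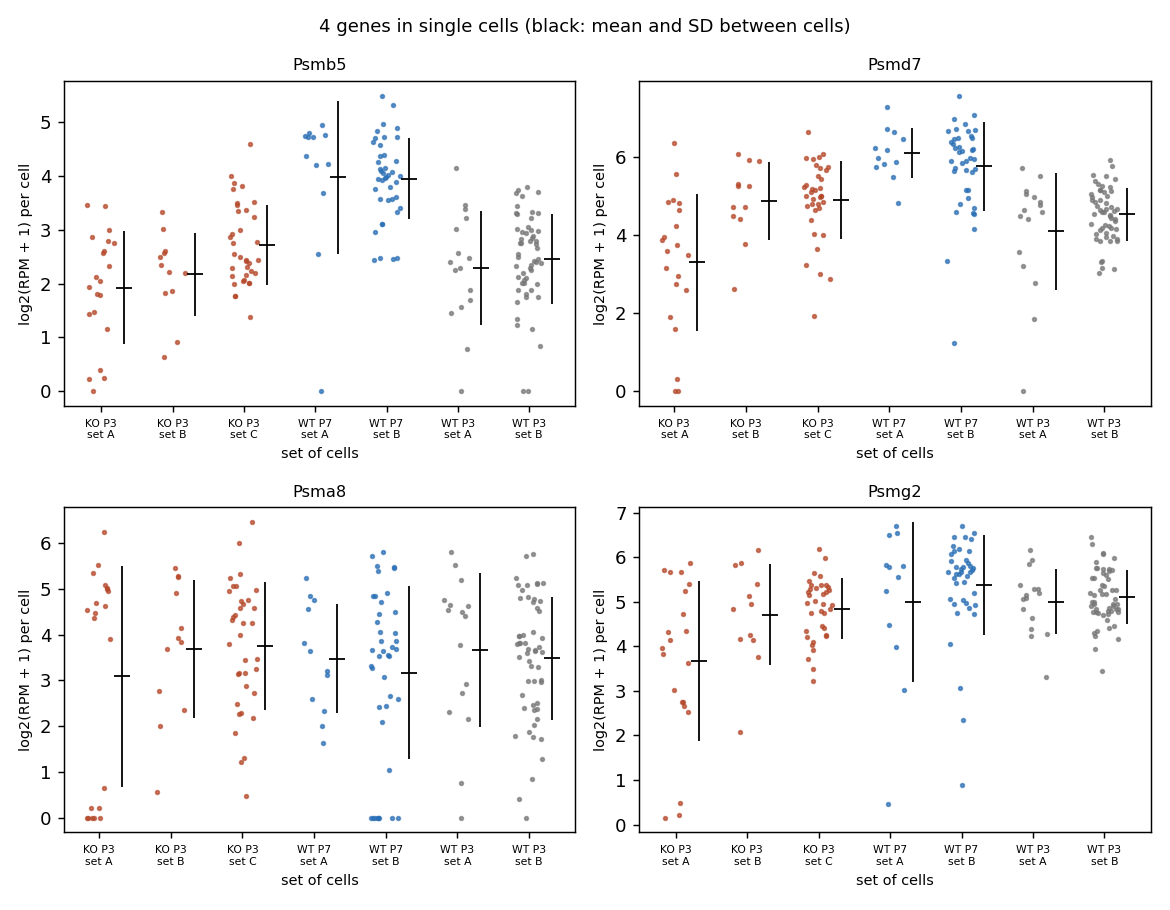
Level, log2(RPM + 1), of Psmb5, Psmd7, Psma8 and Psmg2 in each cell (points) of the 7 sets, with the mean and SD between cells in black. For Psmb5 and Psmd7 both WT P7 sets have higher means than the other 5 sets, 3.98 and 3.96 for Psmb5 and 6.12 and 5.77 for Psmd7, while Psma8 and Psmg2 overlap across sets.

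Some members did not follow the rest. Psmc6, an ATPase of the cap, differed by -0.19 between WT P7 and WT P3 (-0.29 to -0.09), and by -0.63 after rescaling (-0.66 to -0.59). Its lowest, median and highest values were 5.95, 59.6 and 147 RPM over WT P7 cells and 13.7, 56.7 and 135 RPM over WT P3 cells, so the ranges overlapped throughout. The other 5 ATPases differed by 0.47 to 0.95. The cap chaperone Psmd10, known as gankyrin, differed by -0.25, with pairs on both sides of 0 (-1.19 to 0.70). The core chaperone Psmg4 differed by -0.10 (-0.50 to 0.30) and Psmc3ip by -0.11 (-0.89 to 0.67).

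The assembly chaperones had lower medians than the subunits, 0.13 for the 3 measured core chaperones and 0.16 for the 3 cap chaperones, a contrast that was not tested. None of the 3 core chaperones was higher. Psmd5 was the 1 of 3 cap chaperones called higher, at 0.94 (0.42 to 1.46). Psme2, a subunit of PA28, was the 1 of 5 activators or regulators called higher, at 0.73 (0.55 to 0.91), with a mean of 8.19 RPM in WT P7 cells and 4.45 RPM in WT P3 cells. Its partner Psme1 differed by 0.36 (0.21 to 0.52). Psme3, the nuclear activator PA28-gamma, differed by 0.04 (-0.52 to 0.59), and Psme4, the activator PA200 that acts in spermatogenesis, by 0.01 (-0.28 to 0.31). Both were negative after rescaling, at -0.37 and -0.39.

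Psma8, the meiotic alpha subunit (chromosome 18, 14706151 to 14762301, plus strand, GRCm38), had RNA in most of these premeiotic cells. It exceeded 1 RPM in 59 of 69 KO-labelled P3 cells, 45 of 53 WT P7 cells and 66 of 71 WT P3 cells. Its lowest, median and highest values were 0, 16.6 and 87.1 RPM in KO-labelled P3 cells, 0, 11.4 and 55.1 RPM in WT P7 cells, and 0, 12.3 and 55.2 RPM in WT P3 cells. The ranges overlapped, and its spread between cells was wider than that of most subunits, with an SD of the level of 1.20 to 2.42 in the 7 sets. It differed by -0.25 between WT P7 and WT P3 (-0.50 to -0.0046), which was short of the 0.5 needed, and by -0.61 after rescaling (-0.82 to -0.40), where it was called lower.

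Set against Psma7, the alpha subunit it replaces, Psma8 was a smaller part of the pair at P7. Per kilobase, Psma8 made up 8.08% and 7.95% of Psma7 plus Psma8 in WT P7 sets A and B, against 16.4% and 13.99% in sets A and B of WT P3, means over cells. Averaged over sets the share was 8.02% in WT P7 cells and 15.2% in WT P3 cells, a difference of -7.18 percentage points (-8.47 to -5.90). This share does not depend on the scaling of a cell. Psma7, the other term of the ratio, was called higher at P7, by 0.90 (0.89 to 0.92). How the authors' counting split reads between these close relatives is not given. In KO-labelled P3 sets A, B and C the share was 21.1%, 14.7% and 14.7%, with a difference from WT P3 of 1.67 percentage points that had pairs on both sides of 0 (-1.7 to 7.16). The shares rest on the transcript lengths used and were larger with merged exons, at 28.2% in KO-labelled P3, 15.5% in WT P7 and 27.2% in WT P3 cells.

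**Figure D3:**
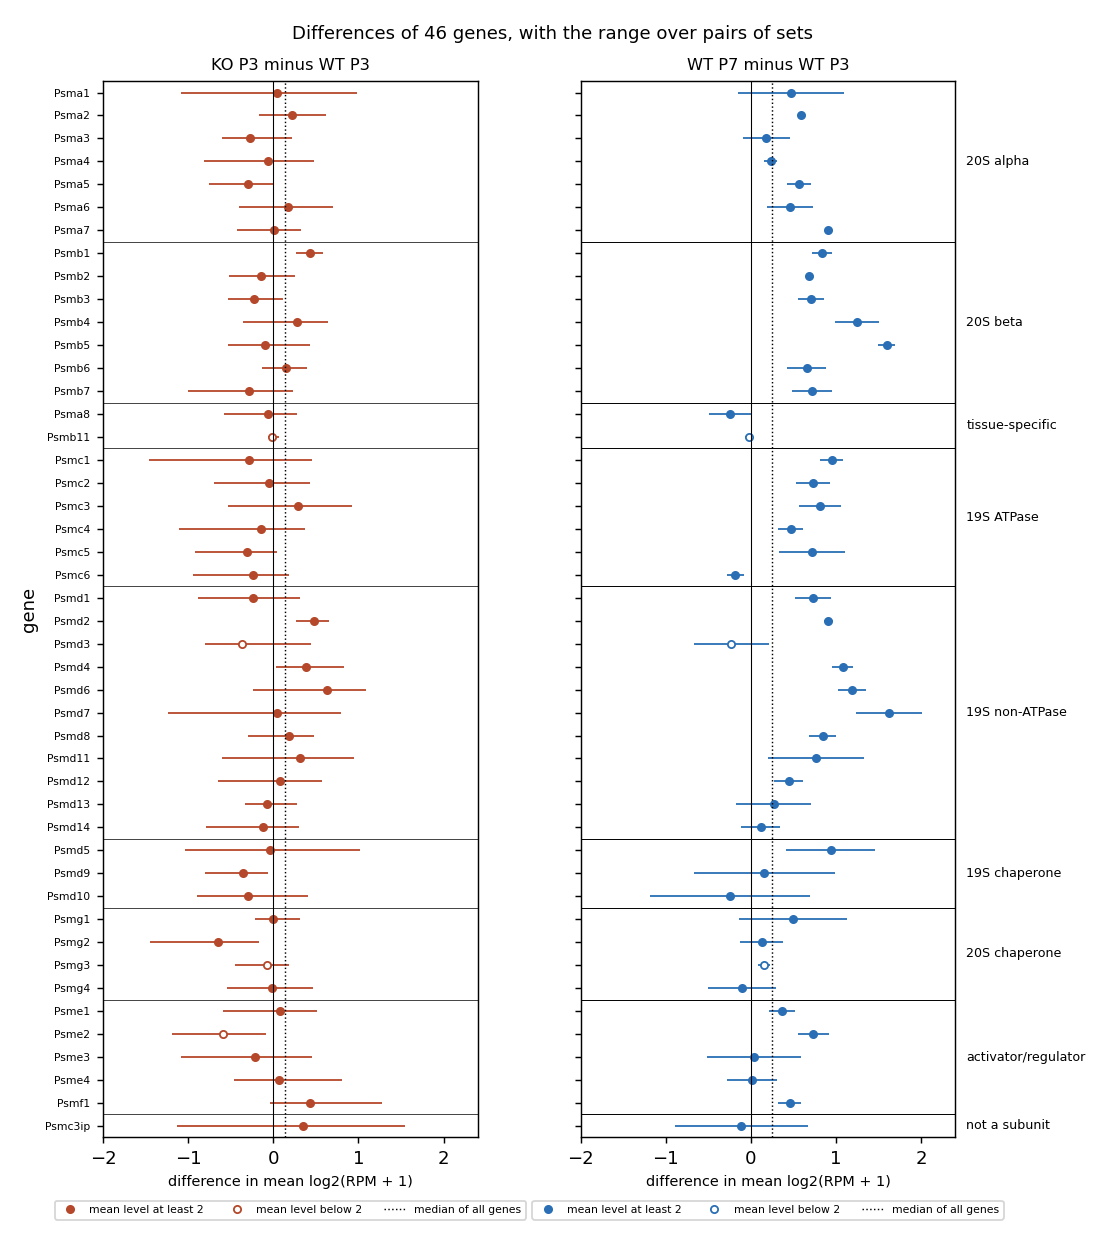
Difference in level, log2(RPM + 1), of each of the 46 genes for KO-labelled P3 minus WT P3 (left) and WT P7 minus WT P3 (right), as points with lines from the lowest to the highest pair of sets, and the median of all measured genes as a dotted line (0.13 left, 0.25 right). On the right, 23 filled points count as higher, while on the left most lines cross 0.

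Summed over the 14 core genes, the RNA was 943 and 1024 RPM in WT P7 sets A and B, against 633 and 597 RPM in sets A and B of WT P3. The ratio of the groups was 1.60 (1.49 to 1.72 over pairs of sets), and 1.20 after rescaling (1.16 to 1.24). Summed over the 17 cap genes it was 1105 and 1084 RPM in WT P7 sets A and B, against 718 and 613 RPM in sets A and B of WT P3, a ratio of 1.65 (1.51 to 1.80), and 1.25 after rescaling (1.16 to 1.34). Core and cap thus moved by similar ratios. The log2 ratio of core to cap per cell averaged -0.17 in WT P7 cells and -0.11 in WT P3 cells, and their difference of -0.06 lay on both sides of 0 over pairs (-0.22 to 0.10). Per kilobase the core stood above the cap in each group, with a mean log2 ratio of 0.98 in KO-labelled P3, 0.89 in WT P7 and 0.97 in WT P3 cells.

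The 46 genes together made up 1.54% of the RPM on genes in WT P7 cells and 1.28% in WT P3 cells, a difference of 0.25 percentage points (0.19 to 0.32). In KO-labelled P3 cells they made up 1.15%, with a difference from WT P3 of -0.13 percentage points (-0.35 to 0.07). The 3 KO-labelled sets differed among themselves, at 0.94%, 1.16% and 1.34% in sets A, B and C.

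**Figure D4:**
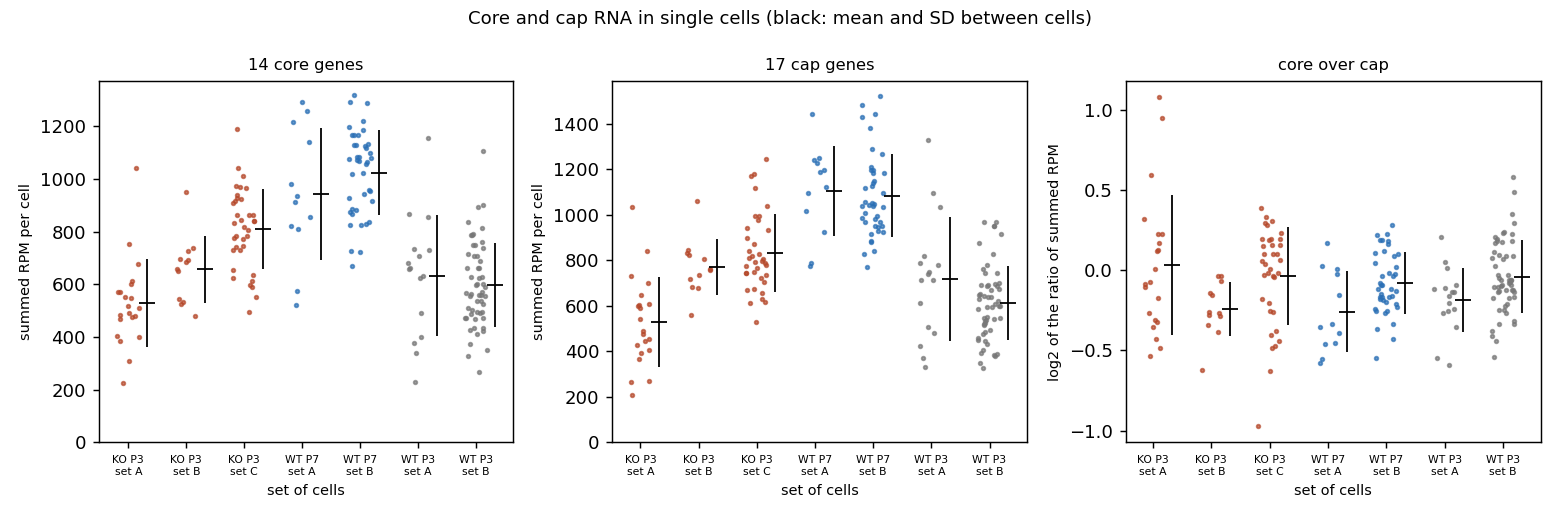
Summed RPM of the 14 core genes (left) and the 17 cap genes (middle) and the log2 ratio of core to cap (right) in each cell (points) of the 7 sets, with the mean and SD between cells in black. Both WT P7 sets average above the other sets for core (943 and 1024 RPM) and cap (1105 and 1084 RPM), while the mean log2 ratios of all sets lie between -0.26 and 0.03.

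For the KO label, the median core and cap differences were small and negative on both scales, with pairs of sets on both sides of 0. They lay below the median of all genes on each scale. The direction of the sums depended on the scale. The ratio of summed RPM to WT P3 was 1.08 for the core and 1.07 for the cap. After rescaling it was 0.96 and 0.94. Of the 42 genes measured in this comparison, 0 were higher and 1 was lower, where 10.9% of the 4899 measured genes were higher and 2.82% lower. Psmb11, Psmd3, Psmg3 and Psme2 were under the minimum level. The median difference was -0.02 for the core (-0.45 to 0.37 over pairs) and -0.00298 for the cap (-0.67 to 0.40), against 0.13 for all genes. After rescaling, too, 0 were higher and 1 was lower, beside 5.16% and 7.61% of all genes, and the medians were -0.21 for the core, -0.17 for the cap and -0.02 for all genes. On that scale 31 of the 42 were negative and 11 positive, with 14 negative in every pair of sets and 1 positive in every pair, beside 12.7% and 10.2% of all genes. Of the 30 core and cap genes among them, 11 were negative in every pair. On the deposited scale 23 of the 42 were negative and 19 positive. Of all 4899 measured genes, 1804 were negative and 3095 positive on the deposited scale, and 2576 and 2323 after rescaling.

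The sums of the core and the cap showed how far the KO-labelled sets lay apart. Core sums were 528, 656 and 810 RPM in KO-labelled sets A, B and C, against 633 and 597 RPM in sets A and B of WT P3. Cap sums were 528, 771 and 832 RPM in KO-labelled sets A, B and C, against 718 and 613 RPM in sets A and B of WT P3. On the deposited scale set A lay below both WT P3 sets and set C above them in both sums. After rescaling, core sums were 652, 592 and 717 RPM in the KO-labelled sets, against 673 and 682 RPM in those of WT P3. Cap sums were then 640, 697 and 729 RPM, against 758 and 701 RPM. Set A thus stayed below both WT P3 sets in both sums, although set B then had the lowest core sum. Set C stayed above both WT P3 sets for the core but lay between them for the cap. On both scales the sets of one label differed by more than the groups did.

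The gene called lower was Psmg2 (chromosome 18, 67641599 to 67654162, plus strand, GRCm38), the core assembly chaperone PAC2. Its level was 3.67 ± 1.78, 4.71 ± 1.13 and 4.84 ± 0.69 in KO-labelled sets A, B and C, against 5.0 ± 0.72 and 5.11 ± 0.61 in sets A and B of WT P3. Its lowest, median and highest values were 0.115, 26.8 and 72.0 RPM over KO-labelled P3 cells and 8.95, 32.5 and 86.9 RPM over WT P3 cells. The ranges overlapped, and the lowest cells were KO-labelled. The difference was -0.65 (-1.44 to -0.16), and -0.84 after rescaling (-1.37 to -0.49). Without KO-labelled set A the difference was -0.28, which is no longer called, and after rescaling -0.62 (-0.75 to -0.49). Psme2, whose mean level of 1.96 was just short of the minimum, differed by -0.59 (-1.19 to -0.08).

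The highest differences for the KO label were those of Psmd6, at 0.63, with pairs from -0.24 to 1.09, and of Psmd2, the large scaffold subunit of the cap base, at 0.48 (0.27 to 0.65). Psmf1, the inhibitor PI31, differed by 0.43 (-0.04 to 1.28), Psmb1 by 0.43 (0.27 to 0.58), Psmd4 by 0.39 (0.04 to 0.83) and Psmc3ip by 0.35 (-1.13 to 1.55). Psmd2, Psmb1 and Psmd4 were positive in every pair, as were 17.1% of all genes, without reaching 0.5. After Psmg2, the lowest differences were those of the cap chaperone Psmd9, at -0.36, the ATPase Psmc5, at -0.31, the alpha subunit Psma5, at -0.30, Psmd10, at -0.30, and Psmb7, at -0.29. Psmb5 differed by -0.10 (-0.53 to 0.43).

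The count for the KO label depended on set A. Without it, 8 of the 42 genes were higher and 0 lower, beside 27.7% of all measured genes higher and 2.82% lower. The 8 were Psmb4, Psmc3, Psmc3ip, Psmd2, Psmd4, Psmd6, Psmd7 and Psmd11, and their share was below that of all genes. With rescaling and without set A, Psmd6 was the gene called higher and Psmg2 the gene called lower, beside 8.45% and 8.39% of all genes. There, 14 of the 42 were negative and 5 positive in every pair, beside 18.9% and 19.7% of all genes. Set A was also the set with the lowest cell cycle and germ marker levels and the highest Sertoli and myoid marker levels given above. Their part in these differences was not tested.

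The genes around the proteasome were described through a list of 31 ubiquitin and proteasome pathway genes, of which 30 were in the table. At P7, 21 of them were measured, 9 were higher and 1 lower, 42.9% and 4.76%, beside the 30.9% and 8.19% of all genes, with a median of 0.29 against 0.25 for all genes. After rescaling 2 were higher and 3 lower, beside 12.3% and 21.3% of all genes, with a median of -0.11, as for all genes. Among the highest differences were those of Uba1, the main ubiquitin-activating enzyme, at 1.21 (0.97 to 1.45), and of Adrm1, a ubiquitin receptor of the cap, at 1.02 (0.88 to 1.17) with a mean level of 1.89, under the minimum. The lowest were those of Zfand5, an activator of the proteasome, at -0.67 (-1.37 to 0.02), of the shuttle factor Rad23b, at -0.50 (-0.78 to -0.23), and of the inducible subunit Psmb10, at -0.26 (-0.38 to -0.13). Nfe2l1 and Nfe2l2, the transcription factors that bind TGACNNNGC, differed by 0.63 (0.10 to 1.16) and 0.68 (0.14 to 1.23), but after rescaling by 0.23 (-0.24 to 0.71) and 0.32 (-0.31 to 0.96), where neither was called.

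For the KO label, 20 of the pathway genes were measured, 1 was higher and 1 lower, beside 10.9% and 2.82% of all genes, with a median of 0.07 against 0.13 for all genes. After rescaling 0 were higher and 2 lower, beside 5.16% and 7.61% of all genes, with a median of -0.10 against -0.02 for all genes. Vcp, the ATPase that extracts ubiquitinated proteins, was higher, at 0.56 (0.02 to 1.05), a call lost after rescaling, at 0.40 (0.09 to 0.77), with 13.1 RPM in KO-labelled P3 cells and 8.31 RPM in WT P3 cells. The ubiquitin ligase Ube3c differed by 0.48 (-0.04 to 1.38). Psmb10 was lower, at -0.90 (-1.24 to -0.56), and at -1.05 after rescaling, with 3.59 RPM in KO-labelled P3 cells and 7.09 RPM in WT P3 cells. Pomp, the maturation factor of the core, differed by -0.52 (-1.71 to 0.17), and the ubiquitin fusion gene Rps27a by -0.51 (-0.84 to -0.16) at a mean level of 1.63, under the minimum. The other inducible subunits were scarce: Psmb8 averaged 0.66 RPM in KO-labelled P3 cells, was listed at 0 in WT P7 cells and averaged 0.27 RPM in WT P3 cells, and Psmb9 averaged 0.37, 1.40 and 1.57 RPM in the same order of groups.

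As means over sets, core and cap genes had higher mutual correlations over cells than the average of genes of like level. For the 11 core genes at level 4 or more, the mean pairwise Pearson r within sets was 0.27, against 0.18 for 13 cap genes, 0.21 between core and cap, and 0.07 over 1462 genes of such a level. After rescaling the values were 0.10 for the core, 0.03 for the cap, 0.05 between them and 0.0043 over all. The rescaled cap value did not exceed that of all genes in every set: in KO-labelled set B it was -0.027, against 9.1e-05. Sets ranged widely: the core value was highest in WT P3 set A, at 0.54 on the deposited scale, and lowest in WT P7 set B, at 0.10. Sets held 12 to 55 cells, and cells are not replicates. The labels do not say what the cells of a set share, so these values are descriptions. Within sets, the mean core and cap level had an r with the log2 total reads of -0.05 to 0.36, and with the level of S-phase genes of 0.09 to 0.75, or -0.41 to 0.67 after rescaling.

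Among pairs of the 43 genes with a mean level of 2 or more, the highest mean r after rescaling was 0.36, between Psme1 and Psme2, the partners in PA28 and close neighbours on chromosome 14. The next were 0.34 for Psma7 with Psmd7 and 0.30 for Psmb1 with Psmb6, and the lowest was -0.28 for Psma5 with Psmc4. Among the genes outside the 46 whose level over cells was most like the members' mean level were Rps3, at an r of 0.67, Rpl8, at 0.63, Hsp90ab1, at 0.61, Rplp0, at 0.58, and Rps4y2, Eef1a1 and Hnrnpf, each at 0.57, as means over the 7 sets. Most of these encode ribosomal proteins, and the rest a chaperone, an elongation factor and an RNA-binding protein. The median over 4913 genes was 0.17. After rescaling the r of these genes ran lower, at 0.30 for Rps3 and 0.11 for Eef1a1, against a median of 0.04 over all genes.

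**Figure D5:**
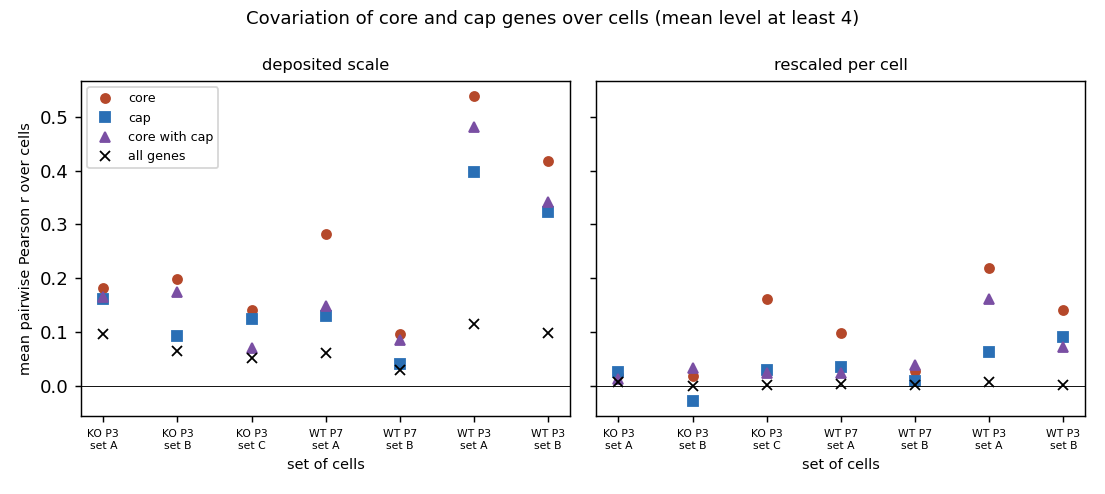
Mean pairwise Pearson r over cells within each of the 7 sets, for core genes, cap genes, core with cap genes and all genes at level 4 or more, on the deposited scale (left) and after rescaling each cell (right). Core values exceed those of all genes in every set on both scales, and rescaling brings each of the 4 closer to 0 on average, with the core mean at 0.27 before and 0.10 after it.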

How the data were processed

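Every sample was a single sorted cell, amplified by SMARTer chemistry on the Fluidigm C1 with ERCC spike-ins and sequenced as Nextera XT libraries, per the labels' protocols. STAR 2.3.0, HTSeq 0.6.1 and mm10 are named in the submitters' processing notes. How strand and multiply aligned reads were treated, and with which annotation, is not given in the sources used here, so members with pseudogene copies or close relatives may be listed too low.

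The authors deposited 1 table of 19642 rows, named as TPM, whose values behave as RPM: within a cell they are whole multiples of 1 step for every gene (99.9998% of values on average, tolerance 0.001 RPM). The recovered reads are relative to a total of which the table holds 8.13% to 23.0% per cell. The plan had allowed for TPM, and its measures were used unchanged. With 1 sample a group, no count test was run on the reads. The 84 ERCC rows and Rn45s were left out.

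The pseudocount was 1 for log2(RPM + 1). Rescaling used median-of-ratios size factors over genes detected in 90% of cells of every set. Lengths and coordinates come from GENCODE vM21 (GRCm38), and promoter windows from RefSeq. Members and lists were chosen with earlier results of these data known. Named genes are the 6 highest and 6 lowest measured differences per comparison, the extremes of each role per kilobase, Psma8, Psmb11, Psmc3ip, the catalytic and inducible subunits, 3 pathway genes at each end, and the 8 genes most like the members over cells. Some genes that this rule picks are not reported here. Psma2, Psma5, Psmd14, Psmd5, Psme1 to Psme4, Nfe2l1 and Nfe2l2, and the genes listed by motif or without set A, were named after their values were seen. Code was tested on simulated data. Python 3.11.15, numpy 2.4.6, pandas 2.3.3, scipy 1.17.1 and matplotlib 3.10.9 were used.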

Additional observations from a re-analysis of the deposited data

How the results depend on the processing

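None of the 23 members higher at P7 changed sign under any alternative, and 16 of them fell under 0.5 on rescaling. Shares of all genes are given above for rescaling and for leaving out KO-labelled set A. The other counts below come without such a share, so they do not show a change particular to these members. With values relative to the reads on genes, 8 members were higher and 4 lower at P7, with medians of 0.23 for the core and 0.32 for the cap. Rescaling by size factors gave 6 higher, 2 lower, and the same medians, 0.23 and 0.32. A call at a difference of 1 left 5 higher. A pseudocount of 10 gave a core median of 0.53. Without WT P7 set B, 3 were lower and the core median was 0.55, and without WT P3 set A, 1 was lower.

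For the KO label, 0 members were lower with a pseudocount of 10, with averaging before the logarithm, with a call at 1 and without KO-labelled set A. There were 2 lower with no minimum level, without KO-labelled set C and without WT P3 set A, and 8 lower relative to the reads on genes. Members higher numbered 8 without KO-labelled set A, 1 when rescaled without that set, 1 with averaging before the logarithm, 1 without KO-labelled set C, 1 without WT P3 set A, 2 with every cell weighted equally and 2 after thinning 188 cells to 50000 reads, which left out 5. The cause of these changes was not tested, and most of these counts were not set against all genes. The Psma8 share with merged exon lengths was 28.2% in KO-labelled P3, 15.5% in WT P7 and 27.2% in WT P3 cells, and this alternative and the rescaling without set A were chosen after seeing the data. No paired analysis was possible because the result comes from no test and the numbers in the titles only name cells.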
